A study of Danio rerio with 19 samples.

Results

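The question addressed here was whether a genotype labelled heterozygous does the same to gene expression in a dyrk1a line and in a scn1lab line of zebrafish. The comparison is a difference of differences. The effect in dyrk1a heterozygotes against their own wild type was set against the effect in scn1lab heterozygotes against their own wild type, gene by gene. The members are the 12 libraries labelled heterozygous or wild type, 3 in each of 4 groups, of 19 libraries in the series. They were chosen by genotype label alone. Each library holds RNA of the head of 1 larva with the eyes removed, although the tissue label reads whole brain. The dyrk1a heterozygotes (HET 2, 3 and 4) and dyrk1a wild types (WT 1, 2 and 4) come from the line with the alleles dyrk1aaΔ77 and dyrk1abΔ8. The scn1lab heterozygotes (HET 1, 2 and 3) and scn1lab wild types (WT 1, 2 and 3) come from the line with the allele scn1labΔ44. Larvae were matched siblings or cousins from crosses between heterozygotes. The labels give no age, do not state for each dyrk1a HET larva which of both dyrk1a copies is mutant, and do not assign either of 2 RNA kits to a library.

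Background helps to read the gene lists. scn1lab encodes a voltage-gated sodium channel of neurons, the counterpart of human SCN1A, and such channels open on depolarisation and carry the rising phase of the action potential. Fish larvae that lack scn1lab are a known epilepsy model. dyrk1aa and dyrk1ab encode the fish forms of DYRK1A, a protein kinase that acts on cell-cycle exit, on neuronal growth and on the calcineurin and NFAT pathway, and its human counterpart is dosage-sensitive. Immediate early genes such as FOS and the EGR genes are transcribed within minutes of neuronal firing or of other stimuli, without new protein synthesis, and many encode transcription factors. Symbols are printed as the supplied name table gives them, so that zebrafish genes with a human-style name stand in capitals.

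Total counts per library were 15103997 to 29875412, and the lowest and the highest were both in scn1lab HET. The scn1lab HET libraries were also the least alike. Their Spearman correlations with each other were 0.832 to 0.898, against 0.914 to 0.958 in dyrk1a HET, 0.952 to 0.955 in dyrk1a WT and 0.937 to 0.951 in scn1lab WT. Genes of the liver, pancreas and gut, organs outside the labelled tissue, took 0.123, 0.202 and 6.24% of all counts in dyrk1a HET 2, 3 and 4, against 0.149, 0.101 and 0.318% in dyrk1a WT. They took 3.17, 14.2 and 1.47% in scn1lab HET 1, 2 and 3, against 0.489, 0.928 and 0.145% in scn1lab WT. Cytosolic ribosomal protein genes took 20.2% in scn1lab HET 3 and 4.92 to 7.23% in the other libraries. scn1lab HET 1 had the lowest share of synaptic genes, at 0.122%. The median differences of gene lists are therefore also given with single libraries left out, naming those libraries. For most lists both ends of that range are given, but not for several lists of other tissues. Every scn1lab column carries the same date tag and no dyrk1a column carries one, so line and date cannot be told apart. Each line was set against its own wild type, which removes any shift that its HET and WT libraries share.

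The targeted genes came first as a check of the labels. scn1lab (ENSDARG00000062744) had 3.55, 4.81 and 5.02 CPM (the counts of a gene scaled to a fixed total per library) in dyrk1a HET, against 5.77, 5.56 and 6.33 CPM in dyrk1a WT. It had 5.3, 10.7 and 17.5 CPM in scn1lab HET, against 17.5, 16.2 and 19.2 CPM in scn1lab WT. scn1lab HET 1 and 2 lay below all scn1lab WT libraries and HET 3 lay within their range. The log2 effect in the scn1lab line was -0.66 ± 0.37 (SE; edgeR adjusted p = 0.364), so that no fall of the transcript in scn1lab HET passed the test. A pair of IDs carries the symbol DYRK1A, and the files do not say which is dyrk1aa and which is dyrk1ab. ENSDARG00000023814 had 36.3, 45.5 and 45.7 CPM in dyrk1a HET, against 37, 34.9 and 38.3 CPM in dyrk1a WT. ENSDARG00000063570 had 19.5, 7 and 16.2 CPM in dyrk1a HET, against 8.81, 17.5 and 11 CPM in dyrk1a WT. Their log2 effects in the dyrk1a line were 0.21 ± 0.19 and 0.19 ± 0.55. Neither passed the adjusted edgeR test, and HET and WT libraries overlapped in both. Counts over the whole gene do not show whether a transcript carries a deletion, so these levels neither check nor go against the heterozygous labels.

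The heterozygous effects of both lines differed for 2 of 21940 genes tested, egr4 and cxcl8a (edgeR quasi-likelihood test, Benjamini-Hochberg adjusted p under 0.05). That is 0.00912% of genes, or 0.00456% in each direction. In egr4 the fall belonged to the scn1lab line, and in cxcl8a to the dyrk1a line. The unadjusted p was under 0.05 for 1216 genes (5.54%), 722 with a positive difference (3.29%) and 494 with a negative one (2.25%). In fits without 1 library this number ran from 724 without scn1lab WT 3 to 2650 without scn1lab HET 2. Counts of list members in such fits are therefore not comparable with the main shares. A positive difference means that the log2 effect in dyrk1a HET was above that in scn1lab HET. DESeq2, a count test with another estimate of the spread, called 77 genes with a positive difference (0.359%) and 30 with a negative one (0.14%). limma's voom, run here and below with sample quality weights, called none, with 1313 genes at an unadjusted p under 0.05. The median absolute difference over all genes was 0.5 on the log2 scale and its median SE was 0.65, so that most differences were within the error of 3 heads per group. The p-values measure the spread between single heads, estimated per gene over all 4 groups together. The 3 scn1lab HET libraries lay above the other 9 for 868 genes (3.96%) and below them for 1177 (5.36%), and the 3 scn1lab WT libraries for 528 (2.41%) and 245 (1.12%). In the dyrk1a line such genes were fewer. The dyrk1a HET libraries lay above the other 9 for 149 genes (0.679%) and below them for 117 (0.533%), and the dyrk1a WT libraries for 173 (0.789%) and 230 (1.05%).

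egr4 (ENSDARG00000077799) encodes a zinc-finger transcription factor of the early growth response family, which neuronal activity induces. It had 11.5, 24.1 and 13.3 CPM in dyrk1a HET, against 16.4, 20.4 and 18.6 CPM in dyrk1a WT. It had 14, 7.26 and 9.8 CPM in scn1lab HET, against 206, 159 and 339 CPM in scn1lab WT. The scn1lab WT libraries stood alone, above the other 9 libraries, and the dyrk1a HET and WT libraries overlapped. egr4 fell 22.6-fold in scn1lab HET (log2 effect -4.50 ± 0.41, adjusted p = 0.00348 in edgeR). Its log2 effect in the dyrk1a line was -0.18 ± 0.35. The difference was 4.32 ± 0.52 (adjusted p = 0.0471 in edgeR). Leaving out scn1lab HET 1, scn1lab HET 2 or dyrk1a HET 3 kept the call. Leaving out any other single library ended it, with adjusted p-values in edgeR of 0.0994 without scn1lab HET 3, 0.105, 0.0717 and 0.156 without scn1lab WT 1, 2 and 3, 0.0902 and 0.111 without dyrk1a HET 2 and 4, and 0.166, 0.0623 and 0.0644 without dyrk1a WT 1, 2 and 4. The difference itself stayed between 3.82 and 4.61 in 25 alternatives.

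cxcl8a (ENSDARG00000104795) encodes interleukin 8, a chemokine that draws neutrophils to wounds and infections. It had no count in any dyrk1a HET library, and 8.35, 3.99 and 5.42 CPM in dyrk1a WT. It had 7.48, 2.55 and 3.75 CPM in scn1lab HET, against 6.76, 4.79 and 4.01 CPM in scn1lab WT. The zeros stand against 39 to 189 raw counts in the other 9 libraries. cxcl8a was at least 47.2-fold lower in dyrk1a HET than in dyrk1a WT, counting the zeros at a floor of 3 counts per library. The fitted log2 effect in the dyrk1a line, -10.12 ± 0.93 (edgeR adjusted p = 0.0209), and the difference, -9.95 ± 1.08 (edgeR adjusted p = 0.0471), depend on how zeros are treated and are no measured folds. In the scn1lab line the log2 effect was -0.17 ± 0.51. With all 19 libraries in the fit, neither the dyrk1a effect nor the difference passed (edgeR adjusted p = 0.544 and 0.489). The call of the difference held without scn1lab HET 1 or 2 or dyrk1a WT 2 and ended without any other single library. Then the edgeR adjusted p was 0.0994 without scn1lab HET 3, 0.135, 0.148 and 0.276 without scn1lab WT 1, 2 and 3, 0.154, 0.0681 and 0.111 without dyrk1a HET 2, 3 and 4, and 0.166 and 0.0644 without dyrk1a WT 1 and 4.

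**Figure D1:**
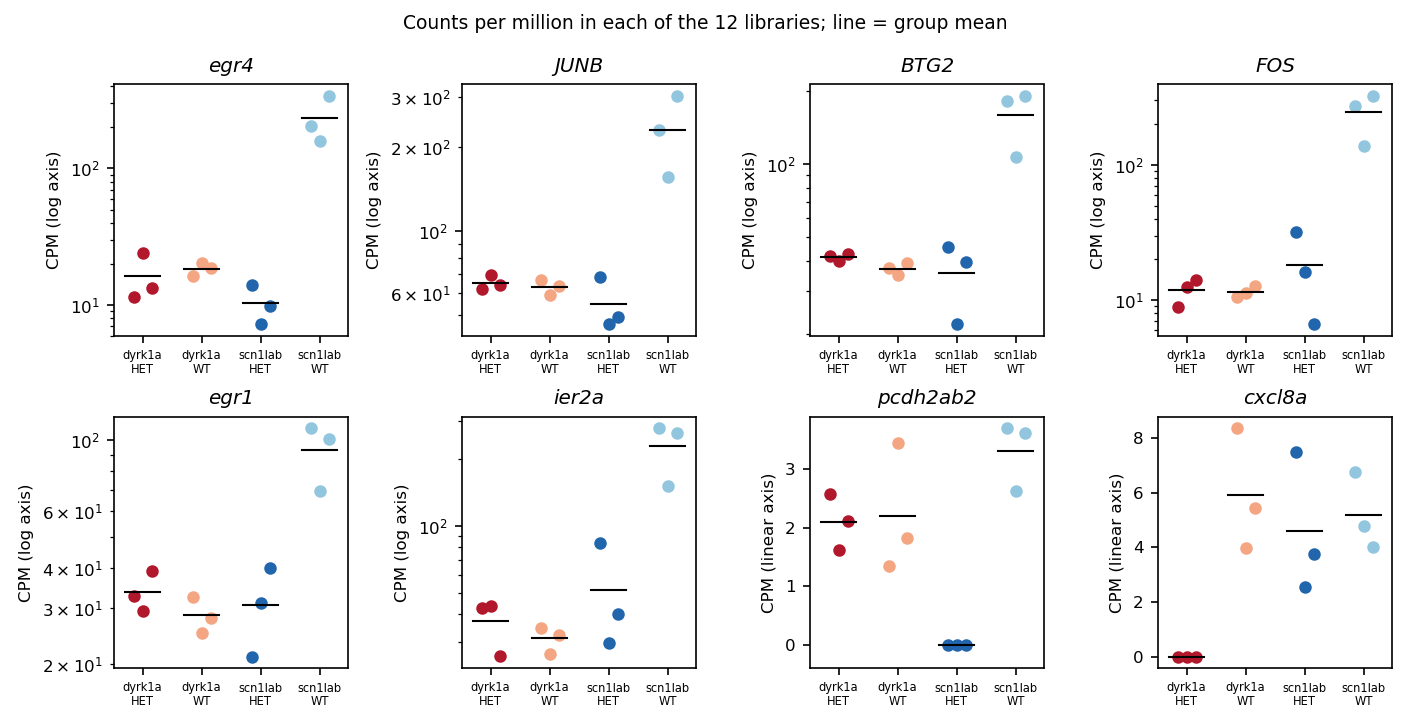
Level of 8 genes (y axis, CPM, on log axes except for pcdh2ab2 and cxcl8a on linear axes) in each of the 12 libraries (points) by group (x axis), with the group mean as a line. For egr4, JUNB (ENSDARG00000104773), BTG2, FOS, egr1 and ier2a the 3 scn1lab WT libraries lie above the other 9, and the libraries at 0 belong to scn1lab HET in pcdh2ab2 and to dyrk1a HET in cxcl8a.

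Immediate early genes made up 4 of the 10 genes with the smallest p on the positive side besides egr4. JUNB (ENSDARG00000104773), a subunit of the AP-1 transcription factor, had 62, 69.9 and 64 CPM in dyrk1a HET, against 66.6, 59 and 63.7 CPM in dyrk1a WT. It had 68.7, 46.5 and 49.5 CPM in scn1lab HET, against 229, 156 and 303 CPM in scn1lab WT. FOS, the partner of JUN proteins in AP-1, had 8.96, 12.5 and 14 CPM in dyrk1a HET, against 10.5, 11.2 and 12.8 CPM in dyrk1a WT. It had 31.6, 16.1 and 6.63 CPM in scn1lab HET, against 274, 138 and 323 CPM in scn1lab WT. In both genes scn1lab WT stood apart and the other groups overlapped. BTG2, an anti-proliferative gene that follows growth factor and neuronal stimuli, had 41.8, 39.8 and 42.5 CPM in dyrk1a HET, against 37.5, 34.9 and 39 CPM in dyrk1a WT. It had 45.7, 21.9 and 39.7 CPM in scn1lab HET, against 182, 107 and 191 CPM in scn1lab WT. egr1, a much used marker of recent neuronal activity, had 32.6, 29.3 and 39 CPM in dyrk1a HET, against 32.4, 25 and 27.9 CPM in dyrk1a WT. It had 21.1, 30.9 and 39.9 CPM in scn1lab HET, against 109, 69.4 and 101 CPM in scn1lab WT. Its scn1lab WT libraries were again above all others.

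In scn1lab HET, JUNB fell 4.18-fold (log2 effect -2.06 ± 0.25, adjusted p = 0.031 in edgeR), FOS fell 13.5-fold (-3.75 ± 0.51, adjusted p = 0.0332) and BTG2 fell 4.48-fold (-2.16 ± 0.29, adjusted p = 0.0332). For egr1 the log2 effect in scn1lab HET was -1.61 ± 0.27 (adjusted p = 0.0841). In dyrk1a HET the log2 effects of the same genes were 0.05 ± 0.24 for JUNB, 0.03 ± 0.46 for FOS, 0.16 ± 0.28 for BTG2 and 0.24 ± 0.26 for egr1. The differences were 2.11 ± 0.35 (JUNB), 3.79 ± 0.67 (FOS), 2.32 ± 0.40 (BTG2) and 1.85 ± 0.37 (egr1), and none passed the adjusted threshold in edgeR (adjusted p = 0.362, 0.452, 0.431 and 0.517). DESeq2 called the difference for JUNB, FOS, BTG2 and egr1.

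Of 43 immediate early genes tested, egr4 alone passed the adjusted test of the difference in edgeR, and 6 did in DESeq2, all positive. With an unadjusted p under 0.05 there were 11 positive and 0 negative differences, beside 3.29% and 2.25% of all genes. The median difference was 0.80, from median log2 effects of 0.13 in dyrk1a HET and -0.65 in scn1lab HET, beside 0.03, 0.01 and 0.03 over all genes. In 13 of the 43 genes every scn1lab WT library was above the other 9 libraries, and over all genes this held for 2.41%. In scn1lab HET, 4 members fell by the adjusted test, beside 0.0319% of all genes. At an unadjusted p under 0.05, 15 had a lower level and 2 a higher one, beside 9.45% and 8.93% of all genes. Without single libraries the median difference was 0.70 (without scn1lab WT 3) to 0.91 (without scn1lab HET 3). Positive members then numbered 10 (without scn1lab WT 3) to 15 (without scn1lab HET 3), and negative ones 0 to 2. In the fits without scn1lab WT 3 and HET 3, 724 and 1896 of all genes passed the unadjusted threshold in either direction. The list's summed share of counts was 0.282 to 0.349% in dyrk1a HET, 0.285 to 0.303% in dyrk1a WT, 0.173 to 0.333% in scn1lab HET and 0.347 to 0.463% in scn1lab WT. The list was put together with earlier results of these libraries known.

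Further members were picked after their values were seen. ier2a, an early gene of unclear biochemical role, had 42.7, 43.3 and 25.7 CPM in dyrk1a HET, against 34.7, 26.5 and 32.1 CPM in dyrk1a WT. It had 83.7, 29.7 and 39.9 CPM in scn1lab HET, against 277, 151 and 264 CPM in scn1lab WT, and its difference was 2.43 ± 0.54. Its scn1lab WT libraries did not overlap with any other group. DUSP1, a phosphatase that switches off MAP kinases, had 75.9, 56.8 and 150 CPM in dyrk1a HET, against 71.7, 50.7 and 56.4 CPM in dyrk1a WT. It had 121, 65.3 and 36.2 CPM in scn1lab HET, against 196, 117 and 164 CPM in scn1lab WT. Here the groups of both lines overlapped. The second JUNB gene (ENSDARG00000074378) had 17, 10 and 23.4 CPM in scn1lab HET, against 40.6, 46.2 and 59 CPM in scn1lab WT, and 11 to 13.7 CPM in the dyrk1a line. NPAS4 (ENSDARG00000055752), a transcription factor that responds to calcium entry in neurons, had 1.11, 2.48 and 9.42 CPM in scn1lab HET, against 18.9, 8.67 and 25.7 CPM in scn1lab WT. In NPAS4, scn1lab HET 3 lay above scn1lab WT 2, so the groups overlapped.

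Other early genes had differences smaller than their SE. These were 0.80 ± 1.08 for JUN, -0.39 ± 0.43 for ATF3, 0.46 ± 1.02 for NR4A1, 0.15 ± 0.37 for NR4A3, -0.07 ± 0.40 for FOSL2 and -0.03 ± 0.35 for KLF6, all of them transcription factors. JUN averaged 85.4 ± 28.1 CPM in scn1lab HET and 134 ± 16.6 CPM in scn1lab WT (SD, n = 3 each). Its scn1lab groups did not overlap, HET below WT, while 1 library of dyrk1a HET and 1 of dyrk1a WT lay far below the others. BDNF, a secreted neurotrophin, had 29.3, 30.6 and 25.8 CPM in dyrk1a HET, against 33.7, 27.1 and 33.5 CPM in dyrk1a WT. It had 5.38, 3.54 and 31.5 CPM in scn1lab HET, against 6.81, 6.66 and 5.27 CPM in scn1lab WT, with a single scn1lab HET library, HET 3, at the level of the dyrk1a line.

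The remaining genes of the positive side were no early genes. pcdh2ab2 (ENSDARG00000037691), a clustered protocadherin of the kind that gives neurons a surface identity, had 2.57, 1.62 and 2.11 CPM in dyrk1a HET, against 1.34, 3.45 and 1.82 CPM in dyrk1a WT. It had no count in scn1lab HET, and 3.71, 2.63 and 3.61 CPM in scn1lab WT. It was at least 16.8-fold lower in scn1lab HET (edgeR adjusted p = 0.031), and the difference did not pass (adjusted p = 0.134). Protocadherins of one cluster are near-identical over much of their length, so reads may be split between neighbours and its level is uncertain. atp1a3b, the sodium pump subunit of neurons, had 94.4, 103 and 90 CPM in dyrk1a HET, against 96.6, 102 and 111 CPM in dyrk1a WT. It had 19.3, 20.3 and 24.8 CPM in scn1lab HET, against 56.9, 96.3 and 133 CPM in scn1lab WT. It fell 4.44-fold in scn1lab HET (edgeR adjusted p = 0.031), and its difference was 2.05 ± 0.38 (adjusted p = 0.469). PURB (ENSDARG00000068822), a protein that binds purine-rich single strands, had 109, 115 and 141 CPM in dyrk1a HET, against 128, 112 and 121 CPM in dyrk1a WT. It had 9.69, 9.56 and 17.6 CPM in scn1lab HET, against 51.6, 56 and 34.3 CPM in scn1lab WT. It fell 3.86-fold in scn1lab HET (edgeR adjusted p = 0.0468), with a difference of 1.96 ± 0.38 (adjusted p = 0.517). In atp1a3b and PURB it was scn1lab HET that lay below the other 9 libraries, and not scn1lab WT above them.

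In 2 positive genes the dyrk1a line contributed. znf346, a zinc-finger protein that binds RNA duplexes, had 152, 177 and 231 CPM in dyrk1a HET, against 85.9, 76 and 74.6 CPM in dyrk1a WT. It averaged 97.6 ± 21.3 CPM in scn1lab HET and 136 ± 17.4 CPM in scn1lab WT (SD, n = 3 each). pip5k1ca, a kinase that makes the membrane lipid PIP2, had 15.5, 12.5 and 14.8 CPM in dyrk1a HET, against 6.37, 8.81 and 7.39 CPM in dyrk1a WT. It had 7.76, 10.7 and 6.73 CPM in scn1lab HET, against 18.5, 14.9 and 23.6 CPM in scn1lab WT. In both genes HET and WT did not overlap in either line, HET above WT in the dyrk1a line and below it in the scn1lab line. The differences were 1.72 ± 0.32 for znf346 and 2.11 ± 0.39 for pip5k1ca (adjusted p = 0.469 for each in edgeR).

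On the negative side, after cxcl8a, no difference passed the adjusted test. marc1, a mitochondrial reductase of N-hydroxylated compounds, had 20.1, 23.3 and 26.7 CPM in dyrk1a HET, against 15.2, 23.3 and 18.9 CPM in dyrk1a WT. It had 19.5, 17.9 and 9.13 CPM in scn1lab HET, against 2.2, 3.04 and 3.2 CPM in scn1lab WT. It rose 5.51-fold in scn1lab HET (edgeR adjusted p = 0.0332), and scn1lab WT was the group apart, below the other 9 libraries. ndufb3, a subunit of respiratory complex I, had 42.4, 39 and 42.4 CPM in dyrk1a HET, against 104, 36.5 and 90 CPM in dyrk1a WT. It had 104, 112 and 333 CPM in scn1lab HET, against 41.9, 40.5 and 36.5 CPM in scn1lab WT. grnas, a short granulin gene, had 8.66, 2.36 and 2.91 CPM in dyrk1a HET, against 5.81, 12.1 and 11.3 CPM in dyrk1a WT. It had 29.9, 8.94 and 54.7 CPM in scn1lab HET, against 3.79, 4.34 and 2.42 CPM in scn1lab WT. In ndufb3 and grnas scn1lab HET and WT did not overlap, while dyrk1a HET and WT did. Their differences were -3.10 ± 0.65 and -4.21 ± 0.92 (adjusted p = 0.517 and 0.593 in edgeR), and that of marc1 was -2.18 ± 0.45 (0.517).

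Several further negative genes encode enzymes and transporters of metabolism. GSTZ1, an enzyme of tyrosine breakdown, had 165, 118 and 133 CPM in dyrk1a HET, against 163, 142 and 151 CPM in dyrk1a WT. It had 271, 304 and 272 CPM in scn1lab HET, against 136, 145 and 96.1 CPM in scn1lab WT. AASS, which starts lysine breakdown, had 7.86, 5.25 and 6.8 CPM in dyrk1a HET, against 9.23, 10.2 and 17.6 CPM in dyrk1a WT. It had 37.1, 32.5 and 99.9 CPM in scn1lab HET, against 20, 22.1 and 18.6 CPM in scn1lab WT. In both, scn1lab HET was above the other 9 libraries. The differences were -1.31 ± 0.30 for GSTZ1, -2.38 ± 0.58 for AASS, -1.35 ± 0.32 for abcb5, an ABC transporter, -1.56 ± 0.38 for ACSS3, a mitochondrial acyl-CoA synthetase, and -3.84 ± 0.92 for cimap1b, a protein of ciliary microtubules. SLC24A5, the ion exchanger of melanosomes, had no count in dyrk1a HET and 0.231, 0.783 and 0.473 CPM in dyrk1a WT, at least 3.95-fold lower in dyrk1a HET. It had 3.44, 0.683 and 2.11 CPM in scn1lab HET, against 1.2, 1.3 and 1.9 CPM in scn1lab WT. The smallest adjusted p among these 6 genes was 0.607 in edgeR.

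**Figure D2:**
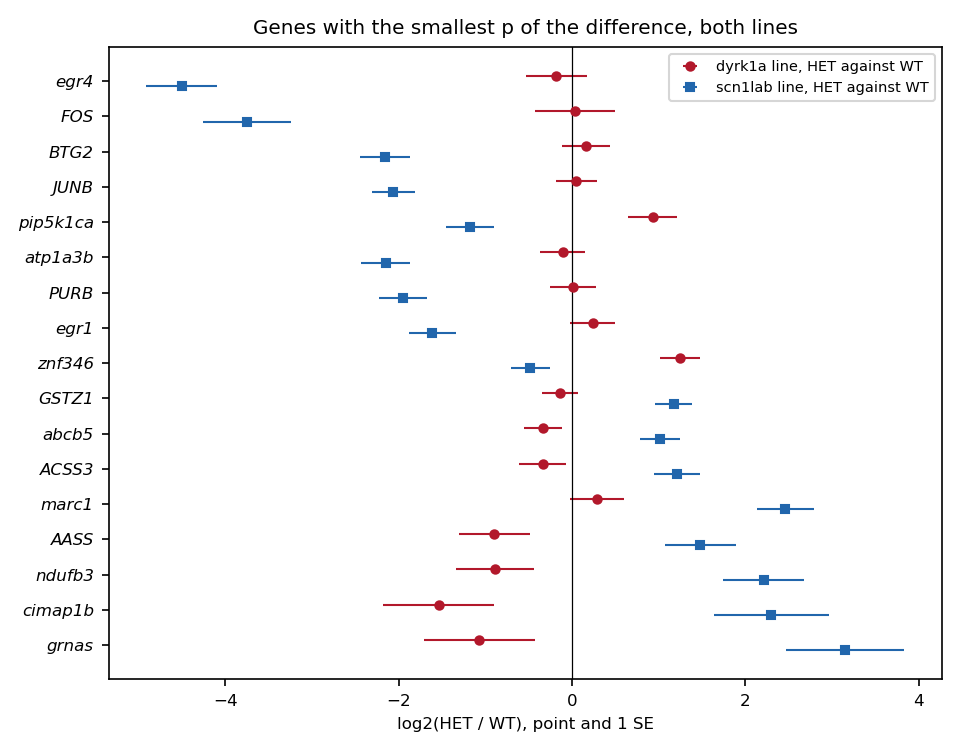
Heterozygous effect (x axis, log2 of HET over WT, with 1 SE) of the named genes with the smallest p of the difference (y axis), circles for the dyrk1a line and squares for the scn1lab line. Genes whose fitted difference exceeds 6 because a group is at 0 are left out. For egr4, FOS, BTG2, JUNB, atp1a3b, PURB and egr1 the circles lie near 0 and the squares between -1.61 and -4.50.

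Genes at 0 in every library of a group, with at least 10 counts in each of the other 9 libraries, were counted as well, and those named here were chosen after their values were seen. dyrk1a HET had 2, cxcl8a and ENSDARG00000076702, which has no symbol. dyrk1a WT had 1, MFSD4A, a membrane transporter with 11 to 1816 counts elsewhere. scn1lab HET, which holds the libraries with the lowest and the highest total counts, had 7, more than any other group. Among them were C1QL3, a secreted synapse organiser with 10 to 51 counts elsewhere, SCD, the desaturase that makes oleic acid, with 11 to 67, and kncn, a hair-cell protein in mammals, with 15 to 63. The others were pcdh2ab2, kcnk7, or90b2 and si:dkey-81h8.1. scn1lab WT had 2, mep1a.1 and nxpe3l. The part of sequencing depth in these numbers was not tested.

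Synaptic vesicle genes, which load, dock and fuse transmitter vesicles, had a median difference of 0.72 over 77 members, from -0.12 in dyrk1a HET and -0.94 in scn1lab HET. In edgeR 0 members passed the adjusted test of the difference, and 0 in DESeq2. With an unadjusted p under 0.05, 12 were positive and 0 negative, beside 3.29 and 2.25% of all genes. In the scn1lab line 33 members had an unadjusted p under 0.05 with a lower level in HET, beside 9.45% of all genes. DESeq2 called 15 of 77 lower in scn1lab HET, beside 3.98%. In the dyrk1a line 1 member was lower in HET and 0 higher at that unadjusted threshold, beside 0.925 and 2.58% of all genes. dyrk1a HET lay below WT without overlap in 14 members and above it in 0, beside 5.79 and 6.02% of all genes. Both effects were below 0 in 51 members, beside 6693 of 21940 genes. SNAP25 (ENSDARG00000058117), a fusion protein of the presynaptic membrane, had 551, 682 and 571 CPM in dyrk1a HET, against 681, 632 and 681 CPM in dyrk1a WT. It had 71.6, 189 and 282 CPM in scn1lab HET, against 333, 612 and 470 CPM in scn1lab WT. All scn1lab HET libraries were below the other 9, with HET 1 lowest. SV2B, a vesicle glycoprotein, had the smallest p of the list, with a difference of 1.53 ± 0.47 (edgeR adjusted p = 0.864).

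The share of all counts held by the synaptic genes was 0.595, 0.692 and 0.662% in dyrk1a HET, against 0.749, 0.81 and 0.832% in dyrk1a WT. It was 0.122, 0.304 and 0.385% in scn1lab HET, against 0.587, 0.627 and 0.812% in scn1lab WT. These shares lay lower in HET than in WT without overlap in both lines, by more in the scn1lab line. After TMM scaling, which every CPM value here carries, the summed level was 5490, 6450 and 6810 CPM in dyrk1a HET, against 6600, 6950 and 7330 CPM in dyrk1a WT, and these groups overlapped. It was 1440, 3940 and 5590 CPM in scn1lab HET, against 5620, 5890 and 6950 CPM in scn1lab WT, with scn1lab HET 3 next to scn1lab WT 1. In the scn1lab line digestive genes took 1.47 to 14.2% in HET against 0.145 to 0.928% in WT. Within HET the orders differed, since HET 1 had the lowest synaptic share and HET 2 the highest digestive share. Skin genes took 3.4 to 6.97% in HET against 3.38 to 5.41% in WT, and these ranges overlapped. The part of either tissue in the result was not tested. In heads, fewer neurons and less RNA per neuron cannot be told apart. Without scn1lab HET 1 the median difference was 0.39, without HET 2 it was 0.94 and without HET 3 it was 1.03, the ends of its range being those without HET 1 and HET 3. The count of positive members was 3 without scn1lab WT 3, 5 without dyrk1a HET 4 and 25 without scn1lab HET 2. Over all genes and both directions, 724, 1056 and 2650 passed the same threshold in these fits, against 1216 in the main fit.

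GABAergic and glutamatergic lists had positive medians too. Over 43 GABAergic genes the median difference was 0.82, from -0.14 in dyrk1a HET and -1.01 in scn1lab HET, and it was 0.79 with the member that has a group at 0 set at its floor. In edgeR and in DESeq2, 0 differences passed the adjusted test. At an unadjusted p under 0.05, 2 were positive and 0 negative, near the 3.29 and 2.25% of all genes. In the scn1lab line 17 members were lower in HET and 0 higher at that threshold, beside 9.45 and 8.93% of all genes. DESeq2 called 5 of them lower in scn1lab HET, beside 3.98% of all genes. dyrk1a HET lay below WT without overlap in 3 members and above it in 0, beside 5.79 and 6.02% of all genes. Both effects were below 0 in 31 members, beside 6693 of 21940 genes. GAD2, which makes GABA, had 134, 157 and 235 CPM in dyrk1a HET, against 163, 142 and 173 CPM in dyrk1a WT. It had 13, 77.8 and 96.4 CPM in scn1lab HET, against 200, 75.8 and 130 CPM in scn1lab WT, and the scn1lab groups overlapped. SLC32A1, which fills vesicles with GABA, had 72, 80.1 and 104 CPM in dyrk1a HET, against 80.1, 88.3 and 85.9 CPM in dyrk1a WT. It had 12.1, 44.6 and 72.4 CPM in scn1lab HET, against 101, 72.4 and 93.7 CPM in scn1lab WT. The difference was 1.25 ± 0.80 for GAD2 and 1.06 ± 0.64 for SLC32A1. The list's median ran from 0.54 without dyrk1a HET 4 to 1.31 without scn1lab HET 2, when 13 members were positive at an unadjusted p under 0.05. Over all genes and both directions, 2650 passed that threshold without scn1lab HET 2, against 1216 in the main fit.

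Over 68 glutamatergic genes the median difference was 0.68, from -0.21 in dyrk1a HET and -0.89 in scn1lab HET. edgeR called 0 differences and DESeq2 called 1. At an unadjusted p under 0.05, 9 were positive and 0 negative, beside 3.29 and 2.25% of all genes. In the scn1lab line 24 members were lower in HET and 1 higher at that threshold, beside 9.45 and 8.93% of all genes. DESeq2 called 16 members lower in scn1lab HET, beside 3.98% of all genes. dyrk1a HET lay below WT without overlap in 14 members and above it in 1, beside 5.79 and 6.02% of all genes. Both effects were below 0 in 45 members, beside 6693 of 21940 genes. SLC17A6, the main vesicular glutamate transporter of the fish brain, had 170, 161 and 207 CPM in dyrk1a HET, against 184, 185 and 136 CPM in dyrk1a WT. It had 29.4, 81 and 67.4 CPM in scn1lab HET, against 141, 148 and 183 CPM in scn1lab WT. SLC17A8, the vesicular glutamate transporter of hair cells and some neurons, had 4.69, 5.15 and 4.97 CPM in dyrk1a HET, against 6.04, 5.33 and 2.11 CPM in dyrk1a WT. It had 0.514, 0.248 and 0 CPM in scn1lab HET, against 5.05, 4.91 and 6.7 CPM in scn1lab WT. In both genes scn1lab HET was below the other 9 libraries. The differences were 1.5 ± 0.45 for SLC17A6 and 4.41 ± 0.96 for SLC17A8 (adjusted p = 0.864 and 0.593 in edgeR). Without scn1lab HET 1 the list's median was 0.36, and without HET 2 it was 1.1. At an unadjusted p under 0.05, 25 members were positive without HET 2, against 4 without scn1lab WT 3. In these fits 2650 and 724 of all genes passed that threshold in either direction.

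Sodium channel genes, the family of scn1lab, had a median difference of 0.38 over 12 members, from 0.26 without scn1lab WT 3 to 0.71 without scn1lab HET 3. scn4ab, the sodium channel of skeletal muscle, had 38.6, 29.1 and 68.5 CPM in scn1lab HET, against 23.8, 21.8 and 16.9 CPM in scn1lab WT, and 17 to 25.6 CPM in the dyrk1a line. Its difference was -1.05 ± 0.43, the smallest p on the negative side of the list, and it did not pass the adjusted test. scn1laa, the sister gene of scn1lab, had 0.831, 1.14 and 0.378 CPM in dyrk1a HET, against 1.8, 1.88 and 1.71 CPM in dyrk1a WT. It had 1.35, 0.186 and 3.84 CPM in scn1lab HET, against 1.75, 2.97 and 2.79 CPM in scn1lab WT.

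Potassium and calcium channel genes had a median difference of 0.72 over 65 members, with 4 positive and 0 negative at an unadjusted p under 0.05, near the 3.29 and 2.25% of all genes. edgeR called 0 and DESeq2 called 1. In the scn1lab line 19 members were lower in HET and 0 higher at that unadjusted threshold, beside 9.45 and 8.93% of all genes. DESeq2 called 11 members lower in scn1lab HET, beside 3.98% of all genes. dyrk1a HET lay below WT without overlap in 7 members and above it in 2, beside 5.79 and 6.02% of all genes. Both effects were below 0 in 41 members, beside 6693 of 21940 genes. The median difference was 0.45 without scn1lab HET 1 and 0.98 without scn1lab HET 2. The positive members numbered 2 without scn1lab WT 3, 10 without scn1lab HET 3 and 18 without scn1lab HET 2. In these fits 724, 1896 and 2650 of all genes passed the unadjusted threshold in either direction. CACNB3, a calcium channel subunit, had 7.03, 6.97 and 8.1 CPM in dyrk1a HET, against 4.61, 4.42 and 5.24 CPM in dyrk1a WT. It had 1.31, 3.6 and 1.54 CPM in scn1lab HET, against 6.76, 8.71 and 8.1 CPM in scn1lab WT. HET and WT did not overlap in either line, and lay in opposite order. KCNJ10, the potassium channel with which glia buffer potassium, had 20.1, 17.4 and 15.8 CPM in dyrk1a HET, against 21.1, 16.1 and 16.2 CPM in dyrk1a WT. It had 4.27, 6.89 and 3.27 CPM in scn1lab HET, against 12.6, 16.6 and 34.1 CPM in scn1lab WT. The differences were 2.50 ± 0.56 for CACNB3 and 2.12 ± 0.54 for KCNJ10 (adjusted p = 0.595 and 0.824 in edgeR).

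Other neuronal and endocrine lists were closer to all genes or mixed. Over all genes 3.29% had a positive and 2.25% a negative difference at an unadjusted p under 0.05. Dopaminergic genes had a median difference of 0.23 over 41 members, with 1 positive and 1 negative member at an unadjusted p under 0.05, and the median was 0 without scn1lab WT 3 and 0.48 without scn1lab HET 3. Neuropeptide precursors had a median of -0.27 over 49 members, with 1 positive and 3 negative. Their median was -0.49 without scn1lab HET 1 and 0.53 without scn1lab HET 3. The median log2 effect of these precursors was -0.24 in dyrk1a HET and -0.03 in scn1lab HET. dyrk1a HET lay below WT without overlap in 14 of the 49 and above it in 1, beside 5.79 and 6.02% of all genes. Both effects were below 0 in 17 of them, beside 6693 of 21940 genes. pmchl, a melanin-concentrating hormone precursor, had 187, 212 and 47.9 CPM in dyrk1a HET, against 283, 236 and 272 CPM in dyrk1a WT. sst1.2, a somatostatin gene, had 12.7, 39.6 and 94.3 CPM in scn1lab HET, against 17.8, 15.2 and 11.8 CPM in scn1lab WT. scn1lab HET 3 was the highest of the sst1.2 values. Pituitary genes had a median difference of 0.62 over 11 members, 7 of them positive, with 1 positive and 0 negative at an unadjusted p under 0.05 and 0 called by edgeR or DESeq2. The median was 0.20 without dyrk1a HET 2 and 0.88 without scn1lab HET 3. Among them prl, which encodes prolactin, had 2.65, 15.2 and 11.8 CPM in dyrk1a HET, against 24.1, 17.1 and 21 CPM in dyrk1a WT. It had 2.33, 3.6 and 3.65 CPM in scn1lab HET, against 7.34, 19.3 and 19.2 CPM in scn1lab WT. For prl, HET was below WT without overlap in both lines. The median log2 effect of the list was -0.53 in each line, although the median of the members' differences was 0.62.

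Glial and progenitor lists had medians of 0.27 to 0.34, and single libraries moved them. Radial astroglia genes had a median difference of 0.33 over 50 members, from 0.13 without scn1lab WT 3 to 0.64 without scn1lab HET 3. At an unadjusted p under 0.05, 5 were positive and 0 negative, beside 3.29 and 2.25% of all genes, and edgeR and DESeq2 called 0. GFAP, the intermediate filament of these cells, had 27.5, 28.6 and 33.1 CPM in dyrk1a HET, against 12.4, 8.03 and 18.9 CPM in dyrk1a WT. It had 13.5, 29.1 and 47 CPM in scn1lab HET, against 22.7, 20.3 and 27.8 CPM in scn1lab WT. GFAP did not overlap between dyrk1a HET and WT, with an unadjusted p of 0.0145 for the log2 effect of 1.18 ± 0.41 (edgeR). It was the only member of the 50 higher in dyrk1a HET at an unadjusted p under 0.05, beside 2.58% of all genes. The list's median log2 effect in dyrk1a HET was -0.04, with 21 of 50 members above 0. The list took 0.992 to 1.32% of counts in dyrk1a HET, against 1.29 to 1.41% in dyrk1a WT. Genes of oligodendrocytes and myelin had a median difference of 0.34 over 27 members, with 2 positive and 2 negative at an unadjusted p under 0.05, and of 0.10 without scn1lab HET 1 to 0.40 without scn1lab WT 1. UGT8, a myelin lipid enzyme, had a difference of -1.13 ± 0.37. Proliferation genes had a median difference of 0.27 over 68 members, from 0.02 without dyrk1a WT 4 to 0.55 without dyrk1a WT 1, and PCNA, mki67 and TOP2A had differences of -0.07 ± 0.36, -0.10 ± 0.65 and 0.19 ± 0.68.

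The list closest to the targeted kinase held 41 genes of DYRK1A, its partners and the calcineurin and NFAT pathway. Its median difference was 0.41, from -0.05 in dyrk1a HET and -0.28 in scn1lab HET, with 6 positive and 0 negative members at an unadjusted p under 0.05, beside 3.29 and 2.25% of all genes, and 0 called by edgeR or DESeq2. Without single libraries the median was 0.31 (without dyrk1a HET 4) to 0.50 (without dyrk1a HET 3). The positive members numbered 3 without scn1lab WT 3 and 8 without scn1lab HET 2. In the latter fits 724 and 2650 of all genes passed the unadjusted threshold in either direction. GSK3A (ENSDARG00000015681), the kinase that follows DYRK1A on shared substrates, had 83.6, 84.5 and 87.4 CPM in dyrk1a HET, against 77.9, 96 and 98 CPM in dyrk1a WT. It had 34.7, 44.3 and 29.8 CPM in scn1lab HET, against 68.3, 68.9 and 74.2 CPM in scn1lab WT. FAM53C, a binding partner of DYRK1A in human cells, had 32.4, 33.3 and 42.8 CPM in dyrk1a HET, against 40, 36.9 and 38.8 CPM in dyrk1a WT. It had 7.24, 19.9 and 7.11 CPM in scn1lab HET, against 34.6, 29 and 33.5 CPM in scn1lab WT. In both genes it was scn1lab HET that lay apart, not dyrk1a HET. rcan1a, the calcineurin inhibitor, had a difference of 0.08 ± 0.25. Autism-associated genes had a median difference of 0.29 over 44 members, with 2 positive and 0 negative, near the share of all genes. It was 0.08 without scn1lab HET 1 and 0.48 without scn1lab HET 3. CHD8, a chromatin remodeller, had a difference of 0.32 ± 0.31.

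**Figure D3:**
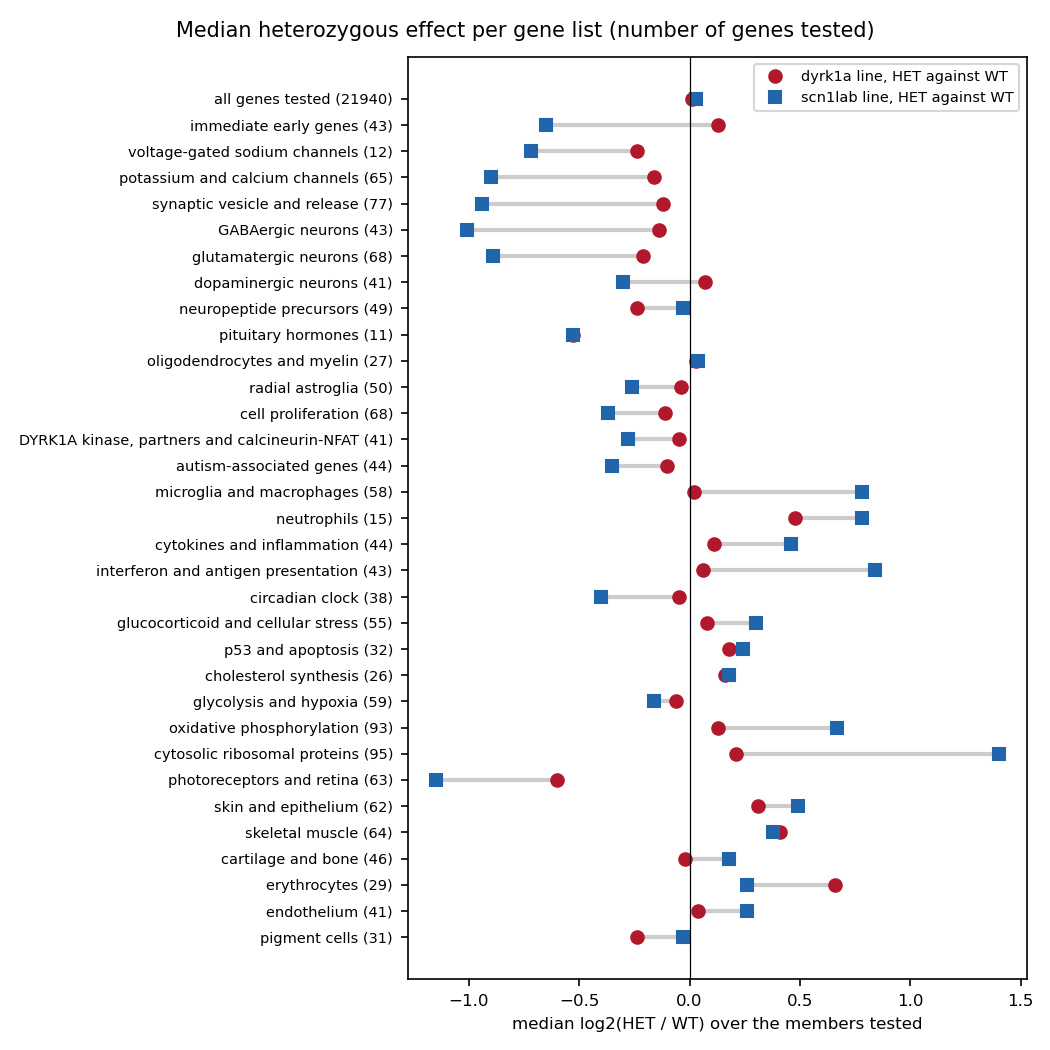
Median log2 effect of HET over WT (x axis) over the tested members of each gene list (y axis, number of genes in brackets), circles for the dyrk1a line and squares for the scn1lab line. The squares of the synaptic, GABAergic, glutamatergic and channel lists lie between -0.72 and -1.01 and that of the ribosomal list at 1.40, while their circles stay between -0.24 and 0.21. The digestive, complement and lens lists are left out. Single libraries moved their medians, and also those of some lists shown. Without scn1lab HET 3 the scn1lab median of the ribosomal list was 0.49.

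Immune lists had negative median differences. Microglia and macrophage genes had a median difference of -0.62 over 58 members, from 0.02 in dyrk1a HET and 0.78 in scn1lab HET. At an unadjusted p under 0.05, 0 were positive and 7 negative, beside 3.29 and 2.25% of all genes, edgeR called 0 and DESeq2 called 1. The median was -0.33 without scn1lab HET 1, with 2 positive and 7 negative members. It was -0.91 without scn1lab HET 2, with 0 positive and 12 negative members. The fewest negative members, 4, were found without scn1lab WT 3. In these fits 1855, 2650 and 724 of all genes passed the unadjusted threshold in either direction. HMOX1, the haem-degrading enzyme of macrophages and stressed cells, had 53, 38.4 and 55.1 CPM in dyrk1a HET, against 51.1, 94.9 and 52 CPM in dyrk1a WT. It had 285, 269 and 133 CPM in scn1lab HET, against 48.3, 105 and 81.7 CPM in scn1lab WT. SPI1, a transcription factor of myeloid cells, had 8.28, 7.81 and 7.88 CPM in dyrk1a HET, against 11.3, 10.1 and 7.83 CPM in dyrk1a WT. It had 9.42, 8.26 and 10.9 CPM in scn1lab HET, against 3.55, 5.4 and 3.57 CPM in scn1lab WT. The differences were -1.99 ± 0.53 for HMOX1 and -1.47 ± 0.40 for SPI1 (adjusted p = 0.864 for each in edgeR). The summed share of the list overlapped in the scn1lab line, 0.202 to 0.528% in HET against 0.32 to 0.37% in WT. apoeb, its most abundant anchor, had a difference of 0.07 ± 0.59.

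Interferon and antigen presentation genes had a median difference of -0.62 over 43 members, with 1 positive and 5 negative at an unadjusted p under 0.05, beside 3.29 and 2.25% of all genes, and 0 called by edgeR or DESeq2. The median was -0.37 without scn1lab HET 1 and -0.76 without scn1lab HET 2. The negative members numbered 2 without scn1lab WT 3 and 9 without scn1lab HET 2. In the latter fits 724 and 2650 of all genes passed the unadjusted threshold in either direction. mhc1zba, a class I histocompatibility gene, had 41.5, 276 and 42.2 CPM in dyrk1a HET, against 524, 529 and 547 CPM in dyrk1a WT. It had 691, 377 and 332 CPM in scn1lab HET, against 296, 367 and 243 CPM in scn1lab WT. dyrk1a HET was below dyrk1a WT without overlap, and the scn1lab groups overlapped. Cytokine genes had a median difference of -0.25 over 44 members, from -0.47 without dyrk1a HET 2 to -0.01 without scn1lab HET 1, and cxcl8a was their single adjusted call in both tools. Neutrophil genes had a median of -0.31 over 15 members, from -0.61 without scn1lab HET 2 to -0.07 without scn1lab HET 3. lyz, the lysozyme of neutrophils, had 9.11, 9.22 and 15 CPM in dyrk1a HET, against 9.09, 10.8 and 8.66 CPM in dyrk1a WT. CEBPB, a myeloid and acute-phase transcription factor, had 28.7, 31.7 and 34.7 CPM in dyrk1a HET, against 18.5, 21.7 and 16.6 CPM in dyrk1a WT, and a difference of 0.96 ± 0.34.

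Ribosomal protein genes had the most negative median difference of all lists, -1.17 over 95 members, from 0.21 in dyrk1a HET and 1.40 in scn1lab HET. Their unadjusted p was under 0.05 with a negative difference for 13, beside 2.25% of all genes, edgeR called 0 and DESeq2 called 0. In scn1lab HET, 80 of 95 were higher at an unadjusted p under 0.05, beside 8.93% of all genes, and DESeq2 called 77 higher, beside 4.59%. RPLP0, a stalk protein of the large subunit, had 1020, 1030 and 1040 CPM in dyrk1a HET, against 1060, 809 and 753 CPM in dyrk1a WT. It had 2510, 2910 and 13200 CPM in scn1lab HET, against 1870, 1860 and 1190 CPM in scn1lab WT. All scn1lab HET libraries were above scn1lab WT, and HET 3 was far above the others. Without scn1lab HET 3 the median difference was -0.28, with 0 members at an unadjusted p under 0.05 on either side. The size of the median difference thus rests largely on that library. The count was also 0 on either side without dyrk1a HET 4, at a median difference of -1.08. In these fits 1896 and 1056 of all genes passed that threshold in either direction. Without scn1lab HET 3, 60 members were still higher in scn1lab HET at an unadjusted p under 0.05, with a median log2 effect of 0.49. Over all genes 4328 had an unadjusted p under 0.05 for that effect in either direction. Without scn1lab HET 1 the median difference was -1.48, with 75 negative members. In that fit 1855 of all genes passed the unadjusted threshold of the difference in either direction. Oxidative phosphorylation genes had a median difference of -0.52 over 93 members. At an unadjusted p under 0.05, 0 were positive and 5 negative, beside 3.29 and 2.25% of all genes. In scn1lab HET, 52 of the 93 had a higher level at an unadjusted p under 0.05, beside 8.93% of all genes, and DESeq2 called 20 higher, beside 4.59%. The median difference was -0.18 without scn1lab HET 3, with 1 negative member, and -0.73 without scn1lab HET 1, with 36. In these fits 1896 and 1855 of all genes passed the unadjusted threshold in either direction.

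**Figure D4:**
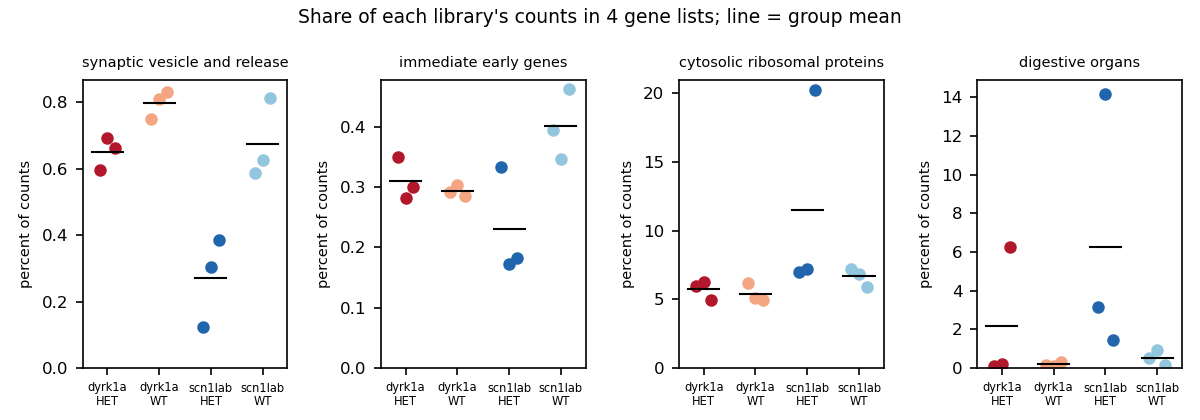
Share of all counts (y axes, percent) held by the synaptic, immediate early, ribosomal and digestive lists in each of the 12 libraries (points), by group (x axis). The synaptic share is 0.122 to 0.385% in scn1lab HET against 0.587 to 0.812% in scn1lab WT. One scn1lab HET library has a ribosomal share of 20.2%, and 1 dyrk1a HET and 3 scn1lab HET libraries have digestive shares of 1.47 to 14.2%.

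For the clock, stress and further metabolic lists, the members past the unadjusted threshold of the difference are counted beside all genes. Over all genes 3.29% were positive and 2.25% negative at that threshold. Circadian genes had a median difference of 0.36 over 38 members, 29 of them positive, with 1 positive and 0 negative at an unadjusted p under 0.05. The median was 0.24 without scn1lab HET 3 and 0.48 without scn1lab WT 1. Without scn1lab HET 1, 7 members were positive at that threshold, and 1855 of all genes passed it in either direction. nr1d2a, a repressor of the clock, had 166, 76.9 and 153 CPM in dyrk1a HET, against 112, 123 and 110 CPM in dyrk1a WT, and a difference of 0.92 ± 0.39. Stress genes had a median of -0.18 over 55 members, from -0.35 without scn1lab WT 1 to -0.06 without scn1lab HET 1. At the unadjusted threshold 0 were positive and 3 negative. In scn1lab HET, 14 of the 55 had a higher level at an unadjusted p under 0.05, beside 8.93% of all genes. DESeq2 called 6 higher, beside 4.59% of all genes. FKBP5, a glucocorticoid target, had a difference of 0.01 ± 0.75. The p53 list had a median of -0.12 over 32 members, from -0.26 without dyrk1a HET 2 to 0.02 without dyrk1a WT 1. Of these, 1 was positive and 2 negative at the unadjusted threshold. Cholesterol synthesis had 0.23 over 26, from 0.03 without scn1lab HET 3 to 0.67 without scn1lab HET 2. At the unadjusted threshold 1 of the 26 was positive and 3 were negative. The negative ones numbered 0 without scn1lab HET 1 and 5 without scn1lab HET 3. In these fits 1855 and 1896 of all genes passed the threshold in either direction. ldlra, the receptor for low-density lipoprotein, had 24, 24.9 and 24.1 CPM in dyrk1a HET, against 14.5, 14.3 and 11.5 CPM in dyrk1a WT. It had 113, 140 and 87.2 CPM in scn1lab HET, against 43, 42.6 and 28 CPM in scn1lab WT, above WT in both lines. Glycolysis genes had a median of 0.18 over 59 members with 4 positive and 0 negative, and of 0.13 without scn1lab WT 3 to 0.29 without scn1lab WT 1. PFKP, a phosphofructokinase, had 158, 138 and 157 CPM in dyrk1a HET, against 164, 180 and 181 CPM in dyrk1a WT. It had 25, 24.6 and 11.6 CPM in scn1lab HET, against 66.6, 52.4 and 66.5 CPM in scn1lab WT.

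Markers of other tissues were measured because a head holds more than brain. Digestive genes had a median difference of 0.47 over 64 members, from 4.81 in each line. It ran from -4.49 without dyrk1a HET 4 to 1.69 without scn1lab HET 2. Without dyrk1a HET 4, 30 members were negative at an unadjusted p under 0.05, and 1056 of all genes passed it in either direction. In the main fit, with the 9 members that have a group at 0 set at their floor, the median was 0.06. prss1, the trypsin of the exocrine pancreas, had 8.92, 98.8 and 7550 CPM in dyrk1a HET, against 30.2, 1.76 and 254 CPM in dyrk1a WT. It had 105, 17200 and 2490 CPM in scn1lab HET, against 44.5, 23.2 and 10.8 CPM in scn1lab WT, and was at 0 in no library. Complement genes, made mostly in liver, had a median of 1.72 over 28 members, of 1.45 with members at their floor, of -2.13 without dyrk1a HET 4 and of 2.97 without dyrk1a WT 4. Retina genes took 0.116 to 0.412% of counts in dyrk1a HET, 0.121 to 0.579% in dyrk1a WT, 0.0913 to 0.712% in scn1lab HET and 0.0788 to 1.54% in scn1lab WT, although eyes were removed. No retina gene had an unadjusted p of the difference under 0.05 in either direction in edgeR, and edgeR and DESeq2 called 0. Their median of 0.38 was -1.06 without dyrk1a HET 3 and 1.63 without scn1lab HET 3. Skin genes had a median of -0.16 over 62 members. At an unadjusted p under 0.05, 0 were positive and 5 negative, beside 3.29 and 2.25% of all genes. The median was 0.02 over 64 for muscle, 0.07 over 46 for cartilage and bone and 0.62 over 29 for erythrocytes. It was -0.12 over 41 for endothelium, -0.09 over 31 for pigment cells and 1.51 over 41 for lens. Leaving out 1 library turned the sign of some of these, with 0.02 for skin without scn1lab HET 1, -0.31 for muscle without dyrk1a HET 2, -0.17 for cartilage and bone without scn1lab HET 2, 0.04 for endothelium without scn1lab HET 2 and -0.91 for lens without scn1lab WT 3. The erythrocyte median was 0.23 without scn1lab WT 1, and that of pigment cells -0.02 without scn1lab WT 3.

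Taken alone, the dyrk1a heterozygous effect passed the adjusted edgeR test for 1 gene lower in HET, cxcl8a (0.00456%), and for 0 higher (0%). At an unadjusted p under 0.05 there were 769 genes (3.51%), 566 with a higher level in HET (2.58%) and 203 with a lower one (0.925%). HET lay above WT without overlap for 1321 genes (6.02%) and below it for 1271 (5.79%). DESeq2 called 110 higher (0.504%) and 21 lower (0.0961%), and limma's voom called 3 higher and 2 lower. The median absolute log2 effect was 0.25, against 0.52 in the scn1lab line, at median SEs of 0.45 and 0.46. Both SEs rest on 1 estimate of spread per gene for all 4 groups, so their likeness does not show equal spread in both lines. With 1 fit per line, 1102 of 20315 genes had an unadjusted p under 0.05 in the dyrk1a line, against 769 in the main fit. In the scn1lab line there were 2131 of 20730, against 4032 in the main fit. SH3PXD2A, a scaffold of podosomes, had 27.6, 16.7 and 35.8 CPM in dyrk1a HET, against 9.59, 7.56 and 6.95 CPM in dyrk1a WT. gstp1.1, a glutathione transferase, had 88.2, 63.1 and 41.8 CPM in dyrk1a HET, against 9.27, 19.9 and 17.3 CPM in dyrk1a WT. dkk2, a modulator of Wnt signals, had 4.23, 0.168 and 4.8 CPM in dyrk1a HET and no count in dyrk1a WT. Its mean was at least 25.2-fold higher in HET, counting the zeros at the floor of 3 counts per library. That bound does not describe dyrk1a HET 3, whose 0.168 CPM was near the floor. The scn1lab levels of dkk2 were 4.67, 3.1 and 4.9 CPM in HET against 7.34, 3.08 and 6.94 CPM in WT, so the dyrk1a WT libraries were the group apart. gnb4b, a G-protein beta subunit, had 6.16, 7.17 and 7.99 CPM in dyrk1a HET, against 29.3, 28 and 34.7 CPM in dyrk1a WT. DNAJB14, a co-chaperone of the endoplasmic reticulum, had 10.6, 16.3 and 11 CPM in dyrk1a HET, against 24, 28.3 and 25.9 CPM in dyrk1a WT. gnb4b and DNAJB14 were below the other 9 libraries in dyrk1a HET.

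PTCD1, which acts on mitochondrial RNA, had 11.6, 16.9 and 10.5 CPM in dyrk1a HET, against 35, 35.3 and 32.9 CPM in dyrk1a WT, with 8.55 to 18 CPM in the scn1lab line. Here dyrk1a WT stood above all other libraries. None of SH3PXD2A, gstp1.1, dkk2, gnb4b, DNAJB14 and PTCD1 passed the adjusted edgeR test of the dyrk1a effect.

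In the scn1lab line 8 genes passed the adjusted edgeR test (0.0365%), of which 7 fell in HET (0.0319%) and 1 rose (0.00456%). The genes that fell were egr4, JUNB (ENSDARG00000104773), FOS, BTG2, atp1a3b, pcdh2ab2 and PURB (ENSDARG00000068822), and the gene that rose was marc1. At an unadjusted p under 0.05 there were 4032 genes (18.4%), 1959 with a higher level in HET (8.93%) and 2073 with a lower one (9.45%). HET lay above WT without overlap for 1917 genes (8.74%) and below it for 2566 (11.7%). DESeq2 called 866 higher (4.59%) and 752 lower (3.98%), and limma's voom called none. ldlra was just outside the threshold (adjusted p = 0.0505 in edgeR). znf185, a protein of actin stress fibres, had 57.5, 52.6 and 61.3 CPM in scn1lab HET, against 29.7, 24.3 and 19.2 CPM in scn1lab WT, and 25.1 to 33.3 CPM in the dyrk1a line. cfbl, a complement factor B-like gene, had 5.78, 2.79 and 9.8 CPM in scn1lab HET, against 0.571, 0.457 and 0.884 CPM in scn1lab WT. Both had HET above WT without overlap, and neither passed (adjusted p = 0.0724 and 0.0841 in edgeR). The count of calls was 73, 1358 and 76 without scn1lab HET 1, 2 and 3.

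The heterozygous effects of both lines had the same sign in 14079 of 21940 genes (64.2%), both higher in 7386 and both lower in 6693. The Pearson correlation across genes was 0.403 and Spearman's rho was 0.351, given as a description, since genes of one library are not independent and share its depth and tissue content. Over 11128 genes with a mean of at least 10 CPM they were 0.647 and 0.506, with 68.3% of genes of the same sign. Without dyrk1a HET 4, the library with 6.24% digestive counts, Pearson's correlation over all genes was 0.069 and Spearman's was 0.25. Without all libraries over 5% digestive counts they were 0.105 and 0.271. An unadjusted p under 0.05 in both lines was found for 172 of 21940 genes, beside 3.51% of them in the dyrk1a line and 18.4% in the scn1lab line. Whether 172 exceeds the overlap of unrelated effects was not tested. Of the 172 genes, 159 had the same sign, 128 higher and 31 lower. HET lay above WT without overlap in both lines for 257 genes (1.17%) and below WT for 356 (1.62%). It lay above WT in the dyrk1a line and below it in the scn1lab line for 39 (0.178%), and the other way round for 34 (0.155%). edgeR called 0 genes in both lines, DESeq2 called 17, of which 16 had the same sign and 1 the opposite sign, and limma's voom called 0.

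**Figure D5:**
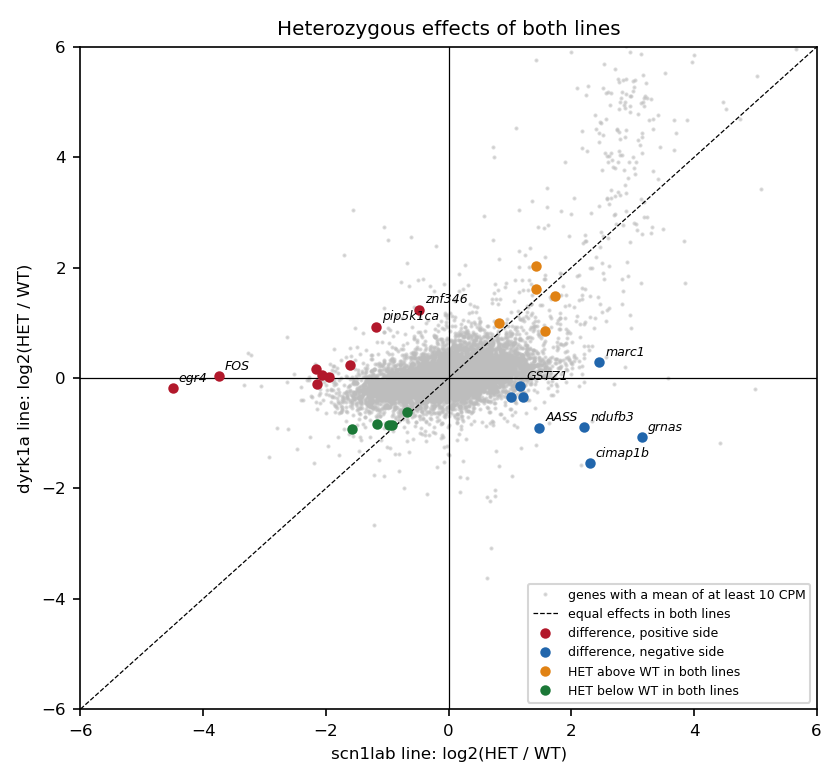
Heterozygous effect in the dyrk1a line (y axis, log2 of HET over WT) against that in the scn1lab line (x axis) for genes with a mean of at least 10 CPM, both axes limited to 6 log2 units on either side. Named genes of the positive side of the difference lie left of the dashed line of equal effects, those of the negative side right of it. The cloud at the upper right, near 3 on the x axis and 5 on the y axis, lies away from the bulk of genes.

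Genes with a higher level in both heterozygotes were named by the larger of both unadjusted p-values. SERPINB1, a protease inhibitor of myeloid and epithelial cells, had 57.8, 49.6 and 117 CPM in dyrk1a HET, against 21.9, 36.2 and 22.5 CPM in dyrk1a WT. It had 45, 62.1 and 48.2 CPM in scn1lab HET, against 14.1, 15.4 and 16.9 CPM in scn1lab WT. krt94, a keratin, had 223, 187 and 128 CPM in dyrk1a HET, against 32.1, 28 and 71.9 CPM in dyrk1a WT. It averaged 127 ± 7.02 CPM in scn1lab HET and 47.5 ± 20.4 CPM in scn1lab WT (SD, n = 3 each). HET and WT did not overlap in either line for these genes, nor for ldlra above. CBR1, a carbonyl reductase, had log2 effects of 1.00 ± 0.25 in dyrk1a HET and 0.82 ± 0.25 in scn1lab HET, and dhdh.1, a dihydrodiol dehydrogenase, had 1.62 ± 0.43 and 1.42 ± 0.42.

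Genes with a lower level in both heterozygotes were named in the same way. ANK1, an ankyrin of the membrane skeleton, had 12.4, 10.5 and 9.28 CPM in dyrk1a HET, against 16.9, 21 and 20.2 CPM in dyrk1a WT. It had 10.8, 10 and 9.22 CPM in scn1lab HET, against 17.2, 17.5 and 22.5 CPM in scn1lab WT. ERC2, a scaffold of the presynaptic active zone, had 12.5, 11 and 19.1 CPM in dyrk1a HET, against 23.4, 31.2 and 26.2 CPM in dyrk1a WT. It had 6.45, 15.5 and 7.88 CPM in scn1lab HET, against 25.2, 28.8 and 35 CPM in scn1lab WT. C1QTNF4, a secreted C1q-type protein, had 180, 182 and 167 CPM in dyrk1a HET, against 355, 383 and 211 CPM in dyrk1a WT. It had 73.4, 149 and 171 CPM in scn1lab HET, against 301, 264 and 319 CPM in scn1lab WT. No HET library overlapped with its WT in these 3 genes. The differences were 0.08 ± 0.32, 0.66 ± 0.48 and 0.32 ± 0.44 for ANK1, ERC2 and C1QTNF4, and no effect in either line passed the adjusted edgeR test. TMEM132E and hnrnpul1l had differences of 0.11 ± 0.39 and 0.06 ± 0.30.

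Genes with opposite effects were fewer. CCDC39, a ruler protein of motile cilia, had 14.1, 20.1 and 22.4 CPM in dyrk1a HET, against 1.38, 4.35 and 4.19 CPM in dyrk1a WT. It had 1.23, 1.43 and 2.02 CPM in scn1lab HET, against 12, 1.18 and 8.1 CPM in scn1lab WT. SLITRK5, a synaptic adhesion protein, had 7.56, 9.66 and 5.94 CPM in dyrk1a HET, against 3.78, 3.95 and 2.07 CPM in dyrk1a WT. It had 5.9, 10.6 and 6.05 CPM in scn1lab HET, against 11.2, 21.9 and 21.3 CPM in scn1lab WT. SLITRK5 did not overlap between HET and WT in either line, while scn1lab HET and WT overlapped in CCDC39. PRKCB, a protein kinase C, and zbtb5, a zinc-finger protein, had differences of 1.89 ± 0.40 and 2.58 ± 0.53. In the opposite order, cyp2p10, a cytochrome P450, had 2.34, 2.56 and 2.65 CPM in dyrk1a HET, against 4.94, 4.78 and 7.03 CPM in dyrk1a WT. It had 9.1, 9.56 and 20.7 CPM in scn1lab HET, against 8.03, 7.23 and 4.63 CPM in scn1lab WT. ntd5 and DNPH1, a nucleotide hydrolase, had -1.62 ± 0.45 and -1.74 ± 0.55. None of these differences passed the adjusted edgeR test, the smallest adjusted p being 0.517.

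Some alternatives called genes that the main test did not. Among the 77 positive genes of DESeq2 were egr4, STAR, pcdh2ab2, JUNB and FOS, with differences of 4.28, 25.52, 8.07, 2.07 and 3.74. Among its 30 negative genes were usp16, cxcl8a, ndufb3, grna.2 and grnas, with -24.53, -9.49, -3.14, -5.65 and -4.25. The values of STAR and usp16 are fitted sizes far beyond the others and are not read as folds. Without scn1lab HET 1, edgeR called 21 genes, 20 of them positive, including LRRC8C, a volume-regulated anion channel subunit, at 3.77. Without scn1lab HET 2 it called 35 genes, 34 of them positive, including POU4F2, a transcription factor of retinal ganglion cells, at 4.51, EDIL3, an extracellular matrix protein, at 2.64, ELFN2 at 3.25 and FAM53C at 2.11. Without scn1lab HET 3 it called 0, with 1896 genes at an unadjusted p under 0.05.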

How the data were processed

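Single-larva head RNA was sequenced from 12 libraries used here (3 per group). The authors' deposited values are raw read counts per gene, 32020 gene IDs per table. Per the submitters' processing notes, Trim Galore 0.5.0, HISAT2 2.1.0, StringTie 1.3.3b, DESeq2 1.22.1 and GRCz11 were named; per the labels' protocols, libraries used a low-input kit. Symbols came from a supplied table (28975 IDs with a symbol, 5966 sharing one). Counts from shared-symbol or near-identical genes are uncertain, and strand use in counting is not given in the sources used here.

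Genes were kept by edgeR's filterByExpr (21940 of them), scaled by TMM and fitted in one model of 4 groups with 8 residual degrees of freedom (edgeR 4.0.16, robust quasi-likelihood F test, limma 3.58.1, R 4.3.3). SE is the absolute log2 value divided by the square root of F. p-values were adjusted over all genes, threshold 0.05. DESeq2 1.42.0 and limma's voom with sample quality weights were alternatives. CPM values are TMM-scaled and not per length. Shares of counts have Wilson 95% intervals of at most 0.0203 percentage points on either side, and these and the floor of 3 counts cover counting error only.

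Named genes were the targets; the 10 smallest p per direction of the difference (mean CPM at least 1, no clone name); the 5 smallest per direction of each effect, of shared and of opposite effects; list anchors with the 3 smallest p per list; and genes that alternatives call. Of 35 lists, 3 came from name patterns; of 1511 names in the others, 1017 matched directly, 379 without paralog letters and 115 did not. The members and lists were chosen with earlier results of these data known. Replicate numbers were not used to pair the samples in the main fit. Some genes that the rule names are not reported here.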

Additional observations from a re-analysis of the deposited data

Results flagged for a closer look

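The heterozygous effects differed between the lines in the test of the difference itself for 2 genes. For egr4 the log2 difference was 4.32 (edgeR adjusted p = 0.0471), with scn1lab HET below scn1lab WT in 3 of 3 libraries and dyrk1a HET and WT overlapping. For cxcl8a it was -9.95 (edgeR adjusted p = 0.0471), with no count in 3 of 3 dyrk1a HET libraries and scn1lab HET and WT overlapping.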

How the results depend on the processing

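The main test called 2 differences. RLE scaling, no low-count filter, a filter of CPM of at least 1 in 6 libraries, leaving out the digestive genes and, chosen after seeing the data, leaving out the ribosomal protein genes kept both calls. Upper-quartile scaling, limma's voom, a non-robust fit, the digestive share as a covariate and leaving out libraries over 5% digestive gave 0, all 19 libraries gave 1 and DESeq2 gave 107. With all 19 libraries egr4 stayed called (edgeR adjusted p = 0.0488) and cxcl8a did not (0.489). Single libraries left out gave 0 to 35. For the dyrk1a effect (1 call) DESeq2 gave 131, voom 5, and all 19 libraries, 1 fit per line, the covariate and leaving out digestive-rich libraries 0. Single libraries left out gave 0 to 14. For the scn1lab effect (8 calls) DESeq2 gave 1618, voom 0, all 19 libraries 52, 1 fit per line 0, the covariate 1 and leaving out digestive-rich libraries 905. Single libraries left out gave 1 to 1358. Spearman's correlation of the effects (0.351) was 0.292 with voom, 0.4 with the CPM filter, 0.271 without digestive-rich libraries and 0.25 to 0.36 without single libraries. The replicate block gave 0 differences, 37 calls in the dyrk1a line and 4 in the scn1lab line. With it the median difference of the pituitary list was 0.05, against 0.62. Whether the numbers pair the samples stayed unsettled. Same-numbered deviations correlated at 0.01, -0.04 and 0.12 in the scn1lab line, beside -0.09 to 0.09 for unlike numbers. In the dyrk1a line, which shares only 2 numbers, they correlated at 0.26 and 0.2, beside -0.16 to 0.19 for unlike numbers. The cause of these moves was not tested. The median difference of all genes was 0.03, and 0.13 with the block and 0.1 with voom.

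Among named genes, 2679 values kept direction and side of the threshold, 108 lost and 89 gained a call, and 9 reversed. Without single libraries the difference of scn1lab was -0.07 (without scn1lab HET 1) to 0.71, the dyrk1a effect of DYRK1A ENSDARG00000063570 -0.11 to 0.51, and the differences of scn1laa -1.17 to 0.52, of SCN8A ENSDARG00000018032 -0.15 to 0.55 and of SNAP25 ENSDARG00000020609 -0.06 to 0.67. That DYRK1A effect was -0.07 with voom, -0.11 without dyrk1a HET 2 and -0.01 without dyrk1a WT 1. The difference of scn1laa was 0.93 with voom and 0.52 without scn1lab HET 3, that of SCN8A -0.02 without digestive-rich libraries and -0.15 without scn1lab WT 3, and that of SNAP25 -0.06 without scn1lab HET 1. egr4 was called lower in scn1lab HET in 24 of 26 alternatives, JUNB, BTG2 and atp1a3b in 14, and marc1 and pcdh2ab2 in 13. With 3 heads per group the median SE of a difference was 0.65, which limits what is detectable.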

Other observations

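The homozygous libraries of both lines enter no comparison above, and their levels are given with all 19 libraries scaled together. egr4 had 9.23 to 28 CPM in dyrk1a homozygotes and 3.57 to 7.55 CPM in scn1lab homozygotes, and the lowest scn1lab WT library had 152 CPM. FOS had 13.2 to 22.5 CPM in dyrk1a homozygotes and 6.67 to 23.3 CPM in scn1lab homozygotes, and the lowest scn1lab WT library had 133 CPM. BTG2 had 50.9 to 102 CPM in dyrk1a homozygotes and 20.7 to 35.3 CPM in scn1lab homozygotes, and the lowest scn1lab WT library had 103 CPM. For these genes the scn1lab WT group was above every homozygous library as well.

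cxcl8a had 6.46, 0, 1.01 and 7.05 CPM in dyrk1a homozygotes and 4.16 to 15.3 CPM in scn1lab homozygotes, so that the absence of counts in dyrk1a HET did not extend to all dyrk1a homozygotes. pcdh2ab2, at 0 in scn1lab HET, had 0.761 to 1.73 CPM in scn1lab homozygotes. PURB (ENSDARG00000068822) had 102 to 146 CPM in dyrk1a homozygotes and 11.6 to 16 CPM in scn1lab homozygotes. marc1 had 5.05 to 10.6 CPM in scn1lab homozygotes, and the lowest scn1lab WT library had 2.13 CPM.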
